A study of Homo sapiens with 6 samples.

Results

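The RNA of 10 subunit genes of the NuRD complex (CHD3, CHD4, MTA1, MTA2, MTA3, MBD2, MBD3, GATAD2A, GATAD2B and RBBP4) was followed after knockdown of LSD1, a histone demethylase that is known to associate with this complex. The genes were taken by name from a table of 15585 genes, in which all 10 had a row, and 9 of them had enough reads to be tested. The cells were U2OS, a human osteosarcoma line, transfected with control siRNA (siCTR, 3 libraries) or with LSD1 siRNA (siLSD1, 3 libraries) for 48 h. No other treatment of either group is named in the sources used here. The sources used here do not say which LSD1 siRNA was used or whether the replicates came from separate cultures, so p-values measure only the spread between these libraries, which may be technical. RNA-seq was performed in the study to check whether genes of DNA replication change in expression when LSD1 is depleted, and the NuRD subunits are read from the same libraries.

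NuRD is a corepressor complex that joins an ATP-driven nucleosome remodeler to histone deacetylases. CHD3 and CHD4 are alternative remodeling ATPases. MTA1, MTA2 and MTA3 are scaffolds that hold the deacetylases HDAC1 and HDAC2 and the histone chaperones RBBP4 and RBBP7. MBD2, which binds methylated DNA, and MBD3, which binds it poorly, define separate forms of the complex, and GATAD2A or GATAD2B links the MBD protein to the ATPase. Most subunits are thus encoded by paralogues that can stand in for each other, and the balance within each class was therefore examined beside the single genes.

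The libraries held 12513511 to 13561344 counted reads, and levels are given as CPM, which are read counts scaled to the library total with TMM factors, or, where genes are compared with each other, as the deposited FPKM, which also divides by gene length. KDM1A, which encodes LSD1, averaged 489 ± 16.4 CPM in siCTR against 90.4 ± 6.92 CPM in siLSD1 (SD, n = 3 each), with a log2 fold change of −2.44 (95% interval −2.68 to −2.19). Among U2OS markers, VIM had 9487 to 11615 reads per library and COL1A1 had 122 to 200, whereas the osteoblast lineage genes SPARC and RUNX2 had at most 4. COL1A2 had no row in the gene table. The summed level of U2OS markers was 744 to 890 CPM in siCTR and 751 to 872 CPM in siLSD1. Nearly all of it was VIM, at 731 to 880 CPM in siCTR and 736 to 861 CPM in siLSD1. The summed level of 4 markers of other cell types was 7.44 to 9.63 CPM in siCTR and 12.2 to 13.6 CPM in siLSD1. This second sum rested on the epithelial cadherin gene CDH1 and on EPCAM, since PTPRC and PECAM1 had at most 3 reads in any library. The part of these markers in the results was not tested. The siCTR libraries held 95, 80 and 66 reads of CDH1 and the siLSD1 libraries 154, 117 and 143, with a log2 fold change of 0.77 and an adjusted p of 0.0699 from edgeR with Benjamini-Hochberg adjustment. With a correction of that fit for GC content and length, CDH1 had a log2 fold change of 0.72 and was higher at an adjusted p under 0.05, beside 4.48% of genes. The share of reads on GC-rich genes varied by library. The median deviation of the 20% of tested genes with the highest GC content, minus that of the 20% with the lowest, was 0.23, −0.02 and −0.08 on the log2 scale in siCTR replicates 1, 2 and 3, and 0.32, 0.02 and −0.44 in siLSD1 replicates 1, 2 and 3. The same difference between the longest and the shortest transcripts was −0.40 in siCTR replicate 2 and between −0.05 and 0.22 in the other 5 libraries.

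The subunits differed widely in their RNA level per length. In siCTR the order of mean FPKM was MTA2 (62.1 ± 7.25), MTA1 (48.9 ± 5.40), CHD3 (48.4 ± 10.7), RBBP4 (26.9 ± 1.64), MBD2 (23.5 ± 2.90), GATAD2A (20.6 ± 2.77), MBD3 (11.5 ± 1.25), MTA3 (7.99 ± 0.931), CHD4 (4.50 ± 0.782) and GATAD2B (0.0917 ± 0.0724), each with the SD of 3 libraries. The libraries of neighbouring genes overlapped between MTA1 and CHD3, between RBBP4 and MBD2, and between MBD2 and GATAD2A, whereas the other neighbours in this order were apart. In siLSD1 the order was the same, and there the ranges of MTA2 and MTA1 (55.3 to 65.2 and 55.0 to 63.2 FPKM) and of MBD3 and MTA3 overlapped as well. MTA2 was thus above MTA1 in siCTR but not apart from it in siLSD1, whereas MBD2 was above MBD3 and GATAD2A above GATAD2B in every library. CHD3 was above CHD4 in every library too, but that order is uncertain because CHD4 shares much of its exonic sequence with another gene.

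**Figure D1:**
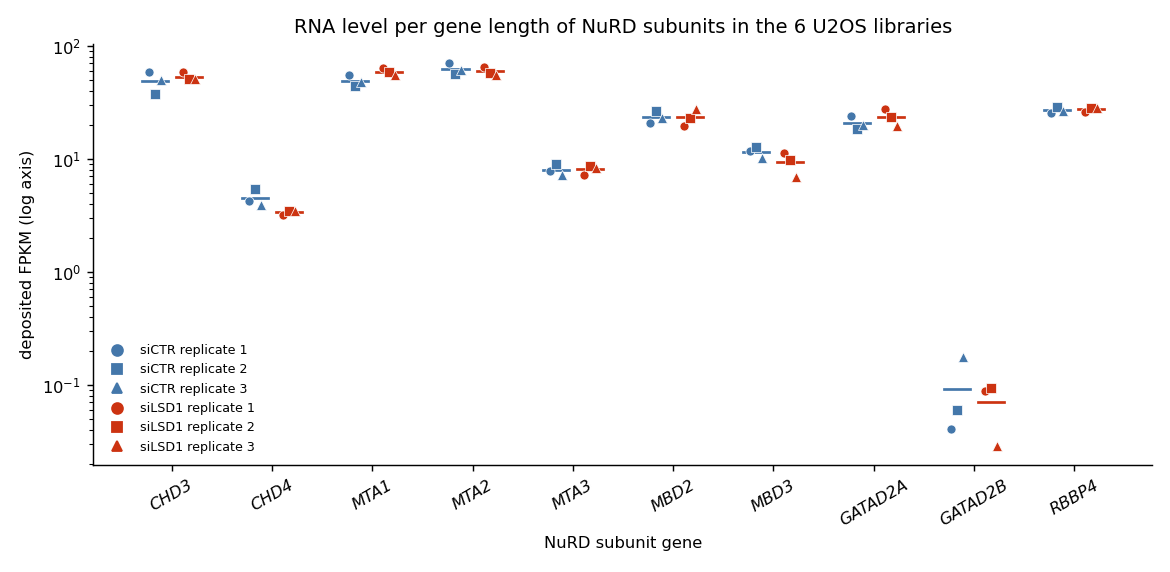
Deposited FPKM (log axis) of the 10 NuRD subunit genes, with a point for each library, siCTR in blue and siLSD1 in red, and a line at each group's mean. In siCTR 9 members had means between 4.50 FPKM (CHD4) and 62.1 FPKM (MTA2), GATAD2B lay far below at 0.0917, and the groups were apart only for CHD4 and MTA1.

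No member changed at an adjusted p under 0.05, by the quasi-likelihood test of edgeR, adjusted after Benjamini-Hochberg over 11844 tested genes, of which 1.07% were higher and 0.371% were lower in siLSD1 at that threshold. At an unadjusted p under 0.05, 1 of 9 members, CHD4, was lower and 1 of 9, MTA1, was higher, beside 6.55% of tested genes that were lower and 7.48% that were higher. With 9 members these counts are near the background. In bulk RNA, fewer cells that express a gene and less RNA per cell cannot be told apart. CHD4 was also the only member with all siLSD1 libraries below all siCTR libraries in CPM, and MTA1 the only one with all above, beside 9.97% and 11.4% of tested genes. The median log2 fold change of the 9 members was 0.01, beside −0.01 for all tested genes, and 5 members had positive and 4 negative values. With DESeq2 and with limma-voom, the other tools run, 0 members had an adjusted p under 0.05 as well, and CHD4 and MTA1 were again the members at an unadjusted p under 0.05. With a correction of the edgeR fit for GC and length, 1 member, MTA1, was higher at an adjusted p under 0.05, beside 4.48% of 11761 genes. With the replicate number as a block in the edgeR fit, 1 member, CHD4, was lower at that threshold, beside 408 genes in all.

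**Figure D2:**
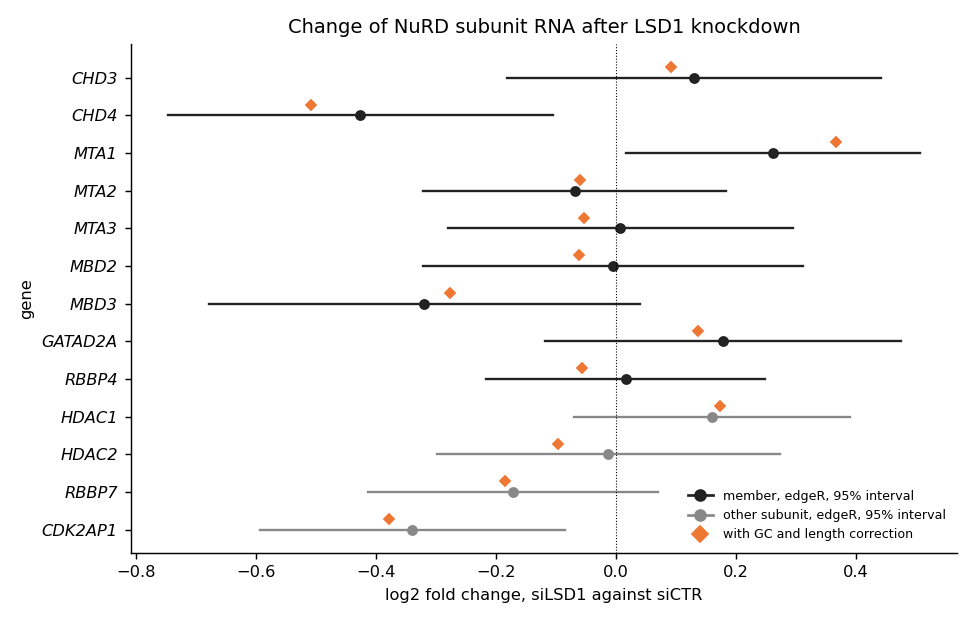
Log2 fold change of each tested NuRD subunit gene in siLSD1 against siCTR from edgeR (circles, black for the 9 members and grey for 4 other subunits) with its 95% confidence interval, and the value after the GC and length correction (orange diamonds). The intervals of CHD4, MTA1 and CDK2AP1 leave out 0, and CHD4 has the lowest value at −0.43.

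Of the ATPases, CHD4 (chromosome 12, 6570082 to 6614524, − strand) had 366, 477 and 358 reads in siCTR, and 286, 294 and 317 reads in siLSD1, in the order of replicates 1, 2 and 3 that is kept throughout. In CPM all siLSD1 libraries were lower, and siCTR replicate 2 was the highest. Its mean was 30.6 ± 5.68 CPM in siCTR against 22.8 ± 1.29 CPM in siLSD1 (SD, n = 3 each), with a log2 fold change of −0.43 (standard error 0.15, 95% interval −0.75 to −0.11). The unadjusted p was 0.0132 and the adjusted p was 0.209 from edgeR with Benjamini-Hochberg adjustment, with a range from 0.0221 to 0.485 over the alternatives. The adjusted p of CHD4 was under 0.05 in 2 of 16 alternatives, those with a replicate block. Without siCTR replicate 2 the log2 fold change was −0.26 and the unadjusted p in edgeR was 0.0602. The reads of CHD4 are uncertain in another way, since 46.9% of its exonic bases in GENCODE, 5964 of 12713, are shared on the same strand with the readthrough gene ENSG00000285238. The longest CHD4 transcript has 6673 bases. How the deposited counting treated shared bases is not given in the sources used here. A second set of counts for the same libraries gave CHD4 1.22 times as many reads, beside a median of 1.11 times over 10311 genes, and a log2 fold change of −0.39. MTA1, with 3.76% of its exonic bases shared on the same strand, also had 1.22 times as many reads in that set, and both ratios were above those of most genes (percentiles 97.3 for CHD4 and 97.2 for MTA1). The part of shared bases in these ratios was not tested.

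CHD3 (chromosome 17, 7884796 to 7912760, + strand) had more reads than CHD4 as counted here, with 5779, 3729 and 5078 reads in siCTR and 5900, 4876 and 5227 reads in siLSD1. The groups overlapped, and siCTR replicate 2 was the lowest library. The log2 fold change was 0.13 (95% interval −0.18 to 0.44), and −0.02 without siCTR replicate 2, the library with fewer reads on long transcripts. CHD4 made up 6.67%, 12.6% and 7.36% of the summed FPKM of CHD3 and CHD4 in siCTR, against 5.18%, 6.37% and 6.40% in siLSD1. The groups were apart, but the gap between siCTR replicate 1 and siLSD1 replicate 3 was narrow. The doubt about the shared bases of CHD4 reaches this share and the order of CHD3 and CHD4, and its size was not tested. The difference in mean share was −2.90 percentage points, and −1.03 without siCTR replicate 2 (exact permutation test on all 6 libraries, 2-sided, p = 0.1, the smallest possible).

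Of the MTA scaffolds, MTA1 (chromosome 14, 105419820 to 105470729, + strand) had 2039, 1669 and 1850 reads in siCTR and 2427, 2099 and 2156 reads in siLSD1. In CPM every siLSD1 library was above every siCTR library, with a narrow gap between 157 CPM in siCTR replicate 1 and 160 CPM in siLSD1 replicate 3. The mean was 142 ± 14.0 CPM in siCTR against 170 ± 10.6 CPM in siLSD1 (SD, n = 3 each), with a log2 fold change of 0.26 (standard error 0.11, 95% interval 0.02 to 0.51). The unadjusted p was 0.0381 and the adjusted p was 0.316 from edgeR with Benjamini-Hochberg adjustment, with a range from 0.00927 to 0.650 over the alternatives. The unadjusted p of MTA1 in edgeR stayed under 0.05 in 2 of 6 fits with 1 library left out, and it was 0.0670 without siCTR replicate 2, 0.120 without siCTR replicate 3, 0.117 without siLSD1 replicate 1 and 0.0959 without siLSD1 replicate 2. The transcript of MTA1 has a GC content of 61.6%, and after GC content and length had been corrected for, its log2 fold change was 0.37 with an adjusted p of 0.0297 from edgeR with Benjamini-Hochberg adjustment. In that fit 4.48% of 11761 genes were higher and 2.91% lower at an adjusted p under 0.05, and MTA1 was the 1 member among them. At an unadjusted p under 0.05 the corrected fit held 12.4% of genes as higher, with MTA1 among the members, and 11.9% as lower, with CHD4 and MBD3. The corrected log2 fold change of CHD4 was −0.51, with an adjusted p of 0.0742 from edgeR with Benjamini-Hochberg adjustment.

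MTA2 (chromosome 11, 62593214 to 62601865, − strand) had 3072, 2483 and 2765 reads in siCTR and 2957, 2441 and 2560 reads in siLSD1. The groups overlapped, and within each group replicate 1 was the highest. Its log2 fold change was −0.07 (95% interval −0.32 to 0.18), so that a change of more than about −0.32 or 0.18 on the log2 scale lies outside the interval. MTA3 (chromosome 2, 42494569 to 42756947, + strand), the least abundant scaffold, had 652 to 790 reads in siCTR and 637 to 758 in siLSD1, and a log2 fold change of 0.01 (95% interval −0.28 to 0.30).

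The shares of MTA1 and MTA2 among the scaffolds varied less between replicates, relative to their means, than the levels of these genes did, which was not so for MTA3. MTA1 made up 41.4%, 40.6% and 41.4% of the summed FPKM of the 3 MTA genes in siCTR, against 46.6%, 46.8% and 46.4% in siLSD1. MTA2 made up 52.8%, 51.2% and 52.4% in siCTR, and 48.1%, 46.1% and 46.6% in siLSD1. MTA3 made up 5.83% to 8.26% in siCTR and 5.26% to 7.01% in siLSD1, and these ranges overlapped. In siCTR MTA2 was thus ahead of MTA1 in every library, whereas in siLSD1 the shares of these scaffolds were nearly equal. The mean share of MTA1 was 41.1 ± 0.450% (SD, n = 3) in siCTR and 46.6 ± 0.241% (SD, n = 3) in siLSD1, a difference of 5.50 percentage points, and with each library left out it stayed between 5.24 and 5.63 points. The difference for MTA2 was −5.14 points, which is not independent of it, since these shares add up with that of MTA3 to the whole. The 2-sided exact permutation test gave p = 0.1 for MTA1 and for MTA2, which is the smallest p that 3 against 3 libraries allow, and 0.175 after Benjamini-Hochberg adjustment over 7 shares, so this test cannot place the difference below 0.05. The second set of counts gave a difference of 5.20 points for MTA1.

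The promoter sequences of this pair of scaffolds are shown because their balance had the smallest spread relative to its difference. The pair was picked after the values of the 7 shares were seen, so its small spread is no further support for a difference. They are the 250 bases before a RefSeq start on GRCh38.p14, written 5′ to 3′ on the strand of the gene, chr14:105419577-105419826 on the + strand for MTA1 and chr11:62601866-62602115 on the − strand for MTA2. Capitals mark the GC box GGGCGG or its reverse complement CCGCCC, searched on both strands.
MTA1: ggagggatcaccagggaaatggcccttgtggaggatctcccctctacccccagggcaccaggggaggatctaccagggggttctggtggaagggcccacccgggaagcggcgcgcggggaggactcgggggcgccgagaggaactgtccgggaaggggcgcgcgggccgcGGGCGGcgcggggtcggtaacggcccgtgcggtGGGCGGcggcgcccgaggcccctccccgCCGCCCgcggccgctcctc
MTA2: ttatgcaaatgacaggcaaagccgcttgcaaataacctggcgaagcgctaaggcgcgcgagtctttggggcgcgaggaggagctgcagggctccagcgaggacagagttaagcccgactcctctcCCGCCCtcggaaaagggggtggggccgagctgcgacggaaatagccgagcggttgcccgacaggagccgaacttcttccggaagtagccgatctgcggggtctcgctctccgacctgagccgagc
The MTA1 window held 3 GC boxes, 30 CG pairs and a GC content of 76.8%, and the MTA2 window held 1 GC box, 25 CG pairs and a GC content of 63.2%. RefSeq gives MTA2 another start, whose window at chr11:62601251-62601500 held 1 GC box, 33 CG pairs and a GC content of 74.4%, so the windows of these genes do not differ in one direction in CG pairs. Of 35116 RefSeq windows of the same length, 42.6% held at least 1 GC box, and the medians were 11 CG pairs and 58.0% GC. The matches describe the sequence only, and binding was not measured.

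**Figure D3:**
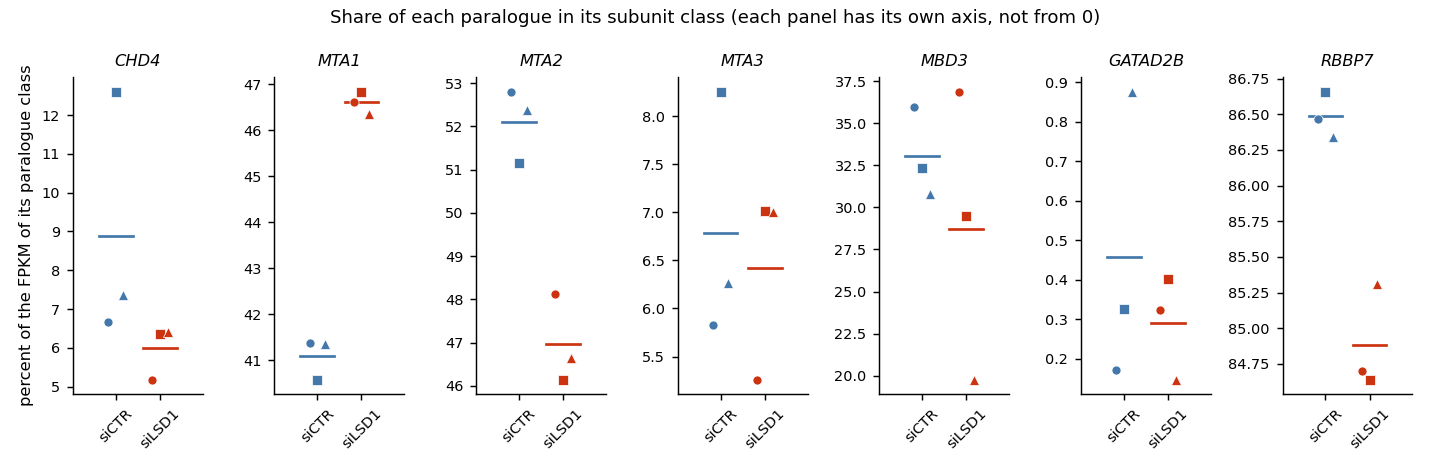
Share of 7 paralogues in the summed FPKM of their subunit class, in percent, with a point for each library (circle, square and triangle for replicates 1, 2 and 3) and a line at each group's mean. Each panel has its own axis, and the panels of MTA1, MTA2 and RBBP7 show groups that are apart by more than their spread, with 41.1% against 46.6% for MTA1. The panels of MTA1 and MTA2 are not independent. How often such shares part the groups in other gene classes was not computed.

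Of the MBD proteins, MBD3 (chromosome 19, 1573596 to 1592865, − strand) had 919, 1010 and 838 reads in siCTR and 919, 739 and 565 reads in siLSD1. The groups overlapped, and siLSD1 replicate 3, the library with the fewest reads on GC-rich genes, was the lowest. The log2 fold change was −0.32 (standard error 0.17, 95% interval −0.68 to 0.04), with an unadjusted p of 0.0768 and an adjusted p of 0.415 from edgeR with Benjamini-Hochberg adjustment. Leaving out siLSD1 replicate 3 gave −0.14, and leaving out siLSD1 replicate 1 gave −0.48. The transcript of MBD3 has a GC content of 62.8%, and the corrected log2 fold change was −0.28 with an unadjusted p of 0.0272 in edgeR. In GENCODE 9.70% of its exonic bases are shared on the same strand with another gene, ENSG00000267059.

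MBD2 (chromosome 18, 54151606 to 54224669, − strand) had 1510, 1951 and 1738 reads in siCTR and 1451, 1632 and 2116 reads in siLSD1, with a log2 fold change of −0.01 (95% interval −0.32 to 0.31). Its mean count was 1733 reads in each group. MBD3 made up 33.0 ± 2.66% (SD, n = 3) of the summed FPKM of MBD2 and MBD3 in siCTR and 28.7 ± 8.58% (SD, n = 3) in siLSD1, where replicate 3 was at 19.8% and replicate 1 at 36.9%. This difference was smaller than the spread between the siLSD1 libraries (exact permutation test, 2-sided, p = 0.5), and without siLSD1 replicate 3 it was 0.151 points in the other direction.

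Of the linkers, GATAD2A (chromosome 19, 19385826 to 19508932, + strand) had 1898, 1489 and 1656 reads in siCTR and 2262, 1810 and 1647 reads in siLSD1. In CPM the groups overlapped, since siLSD1 replicates 2 and 3 were below siCTR replicate 1. Its log2 fold change was 0.18 (95% interval −0.12 to 0.48), and it ranged from 0.06 without siLSD1 replicate 1 to 0.29 without siLSD1 replicate 3. GATAD2B (chromosome 1, 153789030 to 153923360, − strand) had 4, 6 and 18 reads in siCTR and 9, 9 and 3 reads in siLSD1, and did not pass the filter on low counts. Its share of the summed FPKM of both linkers was 0.148% to 0.877% in the 6 libraries, and a difference between the groups was not detectable at this depth. The second set of counts gave GATAD2B 1.49 times as many reads (percentile 99.8). Its reads were below the mean of 50 required of the genes that this percentile refers to. In GENCODE 0.671% of its exonic bases are shared with another gene, on the opposite strand, and the part of shared bases in this ratio was not tested.

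RBBP4 (chromosome 1, 32651142 to 32686211, + strand), the histone chaperone of the complex, had 2644 to 3007 reads in siCTR and 2769 to 3047 reads in siLSD1. The log2 fold change was 0.02 (95% interval −0.22 to 0.25), one of the narrowest intervals among the members. Its reads may be shared with the 7 pseudogenes that GENCODE names after it, and 22.8% of its exonic bases overlap SYNC on the opposite strand. The sources used here do not say whether the counting used strand. Its paralogue RBBP7 was at 471 ± 39.9 CPM in siCTR against 418 ± 28.8 CPM in siLSD1 (SD, n = 3 each). RBBP7 made up 86.5%, 86.7% and 86.3% of the summed FPKM of RBBP4 and RBBP7 in siCTR and 84.7%, 84.6% and 85.3% in siLSD1. All siLSD1 libraries were lower, with a difference in means of −1.61 points (exact permutation test, 2-sided, p = 0.1, the smallest possible). With CPM in place of FPKM the difference was −2.89 points.

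Of the 5 remaining NuRD subunits, 0 of 4 tested genes had an adjusted p under 0.05 in edgeR with Benjamini-Hochberg adjustment, and 1, CDK2AP1, was lower at an unadjusted p under 0.05, beside 6.55% of all tested genes. CDK2AP1, a small subunit of the complex, was at 142, 167 and 132 CPM in siCTR and 112, 113 and 123 CPM in siLSD1. All siLSD1 libraries were lower. The log2 fold change was −0.34 (standard error 0.12, 95% interval −0.59 to −0.08), the unadjusted p was 0.0129, and the adjusted p was 0.206 from edgeR with Benjamini-Hochberg adjustment, or 0.0285 with the GC and length correction, in which 2.91% of genes were lower at that threshold. Without siLSD1 replicate 2 the unadjusted p of CDK2AP1 in edgeR was 0.0669. Of the exonic bases of CDK2AP1, 24.2% overlap MTRFR on the opposite strand. The deacetylase HDAC1 was at 197 to 225 CPM in siCTR and 226 to 246 CPM in siLSD1, with a log2 fold change of 0.16 (95% interval −0.07 to 0.39), and HDAC2 had a log2 fold change of −0.01 (95% interval −0.30 to 0.27). For RBBP7 the log2 fold change was −0.17 (95% interval −0.41 to 0.07), and −0.10 without siCTR replicate 2. With the GC and length correction, HDAC1 was higher (edgeR, unadjusted p 0.0354), beside 12.4% of genes. RBBP7 was lower in that fit (edgeR, unadjusted p 0.0305), as was CDK2AP1, beside 11.9% of genes. The adjusted p of HDAC1 and RBBP7 there were 0.171 and 0.160 from edgeR with Benjamini-Hochberg adjustment. CHD5, an ATPase known from neural tissue, had 5 to 8 reads in every library and was not tested.

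**Figure D4:**
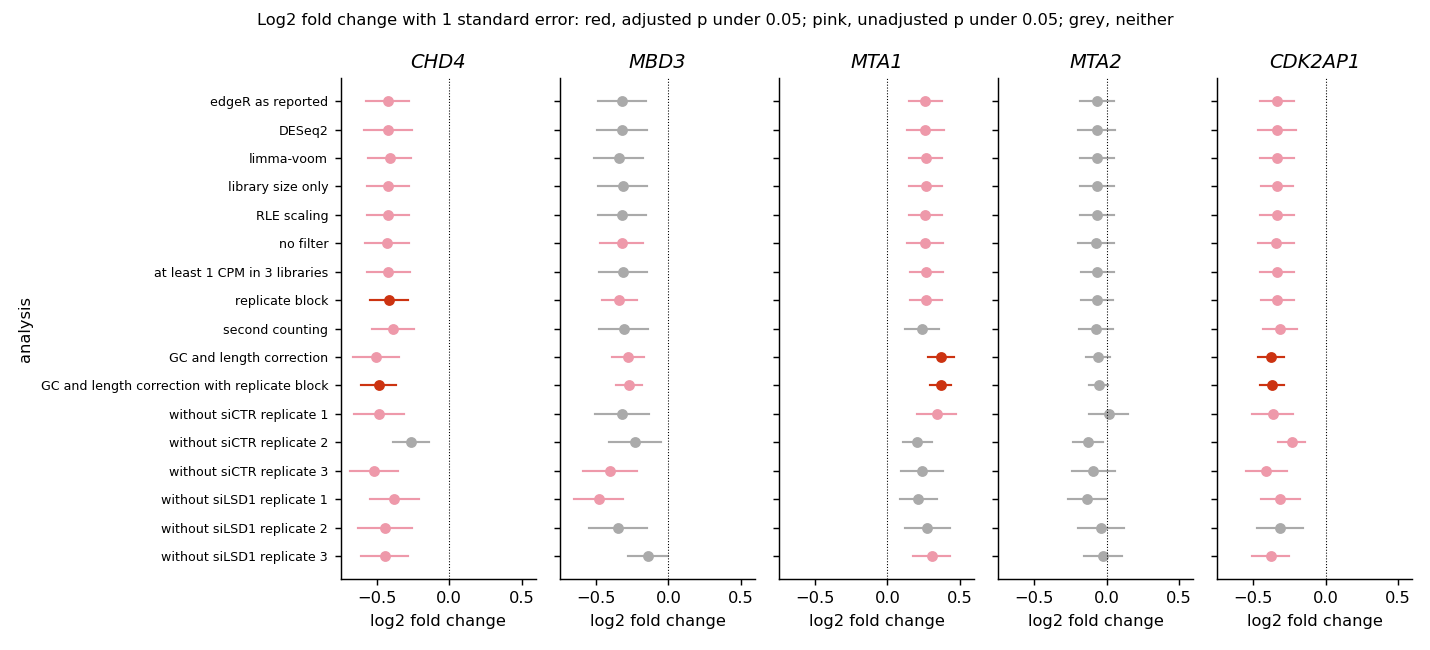
Log2 fold change (points) with 1 standard error (lines) of 4 members and CDK2AP1 in the analysis as reported and in each alternative, red for an adjusted p under 0.05, pink for an unadjusted p under 0.05 and grey for neither. CHD4 stayed between −0.52 and −0.26 and MTA1 between 0.21 and 0.37, while MTA2 lay between −0.14 and 0.02.

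Genes around the complex were described from lists written by hand, and their counts at an unadjusted p under 0.05 are to be read beside the 7.48% of all tested genes that were higher and the 6.55% that were lower. Of 14 proteins known to recruit or bind NuRD, 9 had a row and 6 were tested, with a median log2 fold change of −0.14 and 0 genes at an unadjusted p under 0.05 in either direction in edgeR. Of 13 subunits of the SIN3 complex, which also holds HDAC1, HDAC2, RBBP4 and RBBP7, all were tested, and the median was 0.00. At an unadjusted p under 0.05, 2 of them, SAP30 and BRMS1L, were lower, with log2 fold changes of −0.45 and −0.33, and 0 were higher. Of 7 other CHD remodelers, the median was 0.27, or 0.17 with the GC and length correction, and 1, CHD2, was higher at an unadjusted p under 0.05 with a log2 fold change of 0.32. CHD2 was lowest in siCTR replicate 2, at 119 CPM beside 172 and 151 CPM in the other siCTR libraries. Most other genes of this list also had their lowest siCTR level in that library, which had fewer reads on long transcripts. The part of that library in the median of the list was not tested. None of these lists held a gene at an adjusted p under 0.05 in edgeR with Benjamini-Hochberg adjustment.

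**Figure D5:**
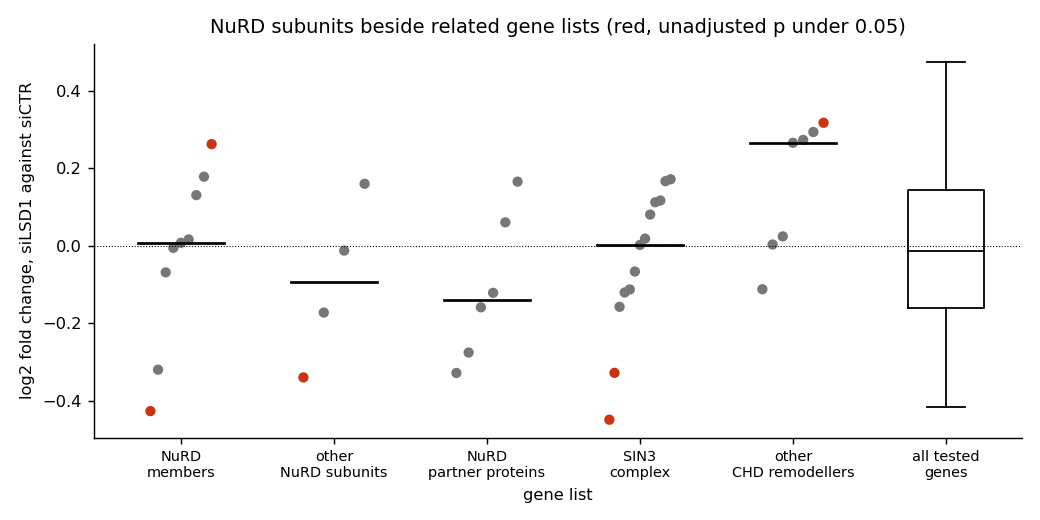
Log2 fold change in siLSD1 against siCTR of each tested gene in 5 lists, red for an unadjusted p under 0.05, with a line at each list's median, beside a box plot of all 11844 tested genes (box, quartiles; whiskers, percentiles 5 and 95). The members spread around 0 with a median of 0.01, and the other CHD remodelers have the highest median, 0.27. Most genes of the latter list had their lowest siCTR level in siCTR replicate 2.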

How the data were processed

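Total RNA of U2OS cells was sequenced in 3 siCTR and 3 siLSD1 libraries, grouped by their labels. Alignment with STAR was done by the authors, who deposited whole read counts and FPKM values per gene, the latter scaled by gene length and library total. The genome build, annotation and read counter are not given in the sources used here. The deposited pair tables hold a second set of counts and FPKM for the same libraries. Columns with the authors' fold changes and p-values were not used, and neither were the normalized counts.

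Counts were tested in R 4.3.3 with edgeR 4.0.16 (TMM, filterByExpr at its minimum count of 10, then the quasi-likelihood test, no covariates), with Benjamini-Hochberg adjustment over 11844 genes and a biological coefficient of variation of 12.6%. The standard error is the absolute log2 fold change over the square root of F. Log-CPM used a prior count of 2. The procedure was tested on simulated counts. Paralogue shares were computed from deposited FPKM with pandas 2.3.3, numpy 2.4.6 and scipy 1.17.1 under Python 3.11.15. Shares were also computed from CPM. Alternatives were DESeq2 1.42.0, limma-voom (limma 3.58.1), library-size or RLE scaling, no filter, at least 1 CPM in 3 libraries, the second counts, a replicate block, a lowess correction (span 0.3) for GC content and transcript length, and each library left out. GC content, length and gene coordinates are from GENCODE 44 on GRCh38, matched for 14963 genes by symbol and 389 through an older symbol, and promoters are from RefSeq. The text names all members, KDM1A, the other NuRD subunits, marker genes of cell types, and genes of the other lists with an unadjusted p under 0.05. Members, lists and tests were chosen with earlier results of these data known. No pair of libraries agreed within sampling noise (lowest chi-square per degree of freedom, 6.45).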

Additional observations from a re-analysis of the deposited data

How the results depend on the processing

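The log2 fold changes of CHD4, MTA1, MBD3, GATAD2A, HDAC1, RBBP7 and CDK2AP1 kept their sign in each of 16 alternatives. The number of members higher at an adjusted p under 0.05, which was 0, became 1 (MTA1) with the GC and length correction, with or without the replicate block. The number lower, also 0, became 1 (CHD4) with the replicate block, with or without that correction. At an unadjusted p under 0.05, the number higher went from 1 to 0 with the second counts and ranged from 0 to 1 with 1 library left out. The number lower went from 1 to 2, with MBD3 added, without a filter, with the replicate block, and with the correction, with or without the block, and ranged from 0 to 2 with 1 library left out. The sign changed with 1 library left out for CHD3 (−0.0162 to 0.280), MTA2 (−0.136 to 0.0164), MTA3 (−0.0633 to 0.117), MBD2 (−0.146 to 0.119), RBBP4 (−0.0277 to 0.0787) and HDAC2 (−0.0961 to 0.103). With the correction it changed for MTA3 (−0.0532, and −0.0479 with the block) and RBBP4 (−0.0570, and −0.0481 with the block), and with the stricter filter for MBD2 (0.000405). Differences in share that changed sign with 1 library left out were those of MTA3 (−0.836 to 0.380 points), MBD3 (−8.41 to 0.151 points) and GATAD2B (−0.310 to 0.0422 points). With CPM the difference for RBBP7 went from −1.61 to −2.89 points and that for MTA1 from 5.50 to 5.11 points. The cause of these changes was not tested. Over all genes, the calls at an adjusted p under 0.05 were 127 higher and 44 lower as reported, 210 and 113 with DESeq2, 527 and 342 with the correction, 489 and 408 with the replicate block, 725 and 575 with both, and 188 and 102 without a filter. With 1 library left out they ranged from 45 to 99 higher and from 7 to 37 lower. At an unadjusted p under 0.05 they were 886 and 776 as reported, 1456 and 1398 with the correction, 1223 and 1323 with the block, 1657 and 1648 with both, and 607 and 454 without siLSD1 replicate 2.

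The replicate numbers were not taken as pairs in the fit as reported, and the sources used here do not say whether they pair the cultures. Deviations of same-numbered libraries from their group means correlated at 0.328, 0.0744 and 0.310 over genes. Each siLSD1 library correlated best with the siCTR library of its own number, and the deposited pair tables match the libraries by these numbers. Pairing is thus not excluded. With the block CHD4 had a log2 fold change of −0.41 and an adjusted p of 0.0348 from edgeR with Benjamini-Hochberg adjustment. Depth limits GATAD2B and CHD5, which had at most 18 reads in any library.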
